A study of Mus musculus with 12 samples.

Results

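The genes of bile acid transport and sensing in the mouse intestine were followed through RNA sequencing of 12 libraries. The 8 genes were taken by symbol from the 55487 genes of the count tables: the apical uptake transporter gene Slc10a2, the cytosolic carrier gene Fabp6, the basolateral exporter genes Slc51a and Slc51b, the nuclear receptor gene Nr1h4, its targets Fgf15 and Nr0b2, and the membrane receptor gene Gpbar1. All 8 were found and all 8 passed the filter on low counts (edgeR's filterByExpr by group), which left 19581 genes. Nr0b2 passed only through the SI groups, so that its presence among the genes tested already follows from a difference. Gpbar1 passed through libraries of SI monolayers, LI tissue and LI monolayers. The members were picked as a pathway, not for their values.

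RNA came from C57BL/6 mice with no transgene, and no cancer drug was given in any group. The 4 groups had 3 libraries each: SI tissue and LI tissue (crypts taken fresh from small or large intestine), and SI monolayers and LI monolayers (crypts of the same regions plated and kept for 24 h in control media with growth factors). By the study's methods the mice were males or females between 6 and 10 weeks of age, a tissue library came from 1 mouse and a monolayer library from pooled wells. For monolayers, the methods state that small and large intestine were taken from the same mice. SI and LI libraries may thus share mice, which the labels do not tell, and the tests treated all libraries as independent. Whether the 3 monolayer libraries of a group came from different mice is not given either. Their spread, and p-values that rest on it, may therefore be that of wells and not of animals. For the first hours after plating, the monolayers also received the small-molecule inhibitors CHIR-99021, LDN-193189 and Y-27632. Crypts for SI monolayers came from the jejunum and were released with EDTA, whereas LI crypts were also digested with enzymes, so that region and isolation cannot be told apart. The gut segment of the SI tissue libraries is not given in the sources used here.

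Bile acids are made from cholesterol in the liver, released into the small intestine and mostly taken back up in the ileum. SLC10A2 in the apical membrane of enterocytes takes them up with sodium, FABP6 binds them in the cytosol, and the heterodimer of SLC51A and SLC51B releases them into portal blood. Inside the enterocyte they activate FXR, the product of Nr1h4, which pairs with RXR and induces Fabp6, Slc51a, Slc51b, Nr0b2 and Fgf15. FGF15 is a hormone that travels to the liver, where its receptor FGFR4 and the co-receptor KLB restrain bile acid synthesis through Cyp7a1. GPBAR1 (TGR5) is a separate, G protein-coupled bile acid receptor, known from enteroendocrine and immune cells among others.

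Libraries held 59016196 to 76216530 counts, so that 3 counts, the limit that a count of 0 allows, corresponded to 0.0394 to 0.0508 CPM, a unit that scales counts to the library total. That value allows for counting error alone, and would double if each mate of a pair was counted separately, on which the sources used here are silent. The labelled tissues were checked against marker genes. All 8 epithelial markers had over 3 counts in every library. The 12 markers of small intestine summed to 14285 to 15975 CPM in SI tissue and 4430 to 4635 CPM in SI monolayers, compared with 225 to 295 CPM in LI tissue and at most 128 CPM in LI monolayers. The 9 large intestine markers in the table summed to 3385 to 5581 CPM in LI tissue and 534 to 545 CPM in LI monolayers, against 663 to 859 CPM in SI tissue and at most 32.1 CPM in SI monolayers. This sum set the regions apart only within a preparation, as SI tissue lay above LI monolayers. The 10 immune markers were above 3 counts in every tissue library, at sums of 151 to 229 CPM in SI tissue and 36.5 to 49.3 CPM in LI tissue, compared with 10.3 to 11.5 CPM in SI and 3.35 to 4.25 CPM in LI monolayers. The sum of the 10 enterocyte markers was also lower in monolayers (5261 to 5446 CPM against 15451 to 23992 CPM in SI, 511 to 582 CPM against 1387 to 1931 CPM in LI). The 4 stem cell markers summed to 155 to 197 CPM in SI tissue against 95.9 to 105 CPM in its monolayers, and to 81.4 to 87.6 CPM in LI tissue against 3.06 to 4.84 CPM in its monolayers. These shifts in makeup run along with every comparison of monolayers with tissue, and their part in the results was not tested. In bulk RNA, fewer cells of a type and less RNA per cell cannot be told apart.

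Monolayers and tissue differed in opposite ways along the path of a bile acid. The uptake transporter gene Slc10a2 and the hormone gene Fgf15 were higher in monolayers of both regions, whereas the carrier gene Fabp6 and the exporter subunit gene Slc51b were lower in monolayers of both regions. The receptor gene Nr1h4 was lower in monolayers in LI but not in SI. Values given below are the authors' normalized counts, which DESeq2 made by dividing the counts of a library by its size factor. Fold changes come from edgeR, and a gene is called where its adjusted p-value over all genes tested is under 0.05 and its absolute log2 fold change at least 1.

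**Figure D1:**
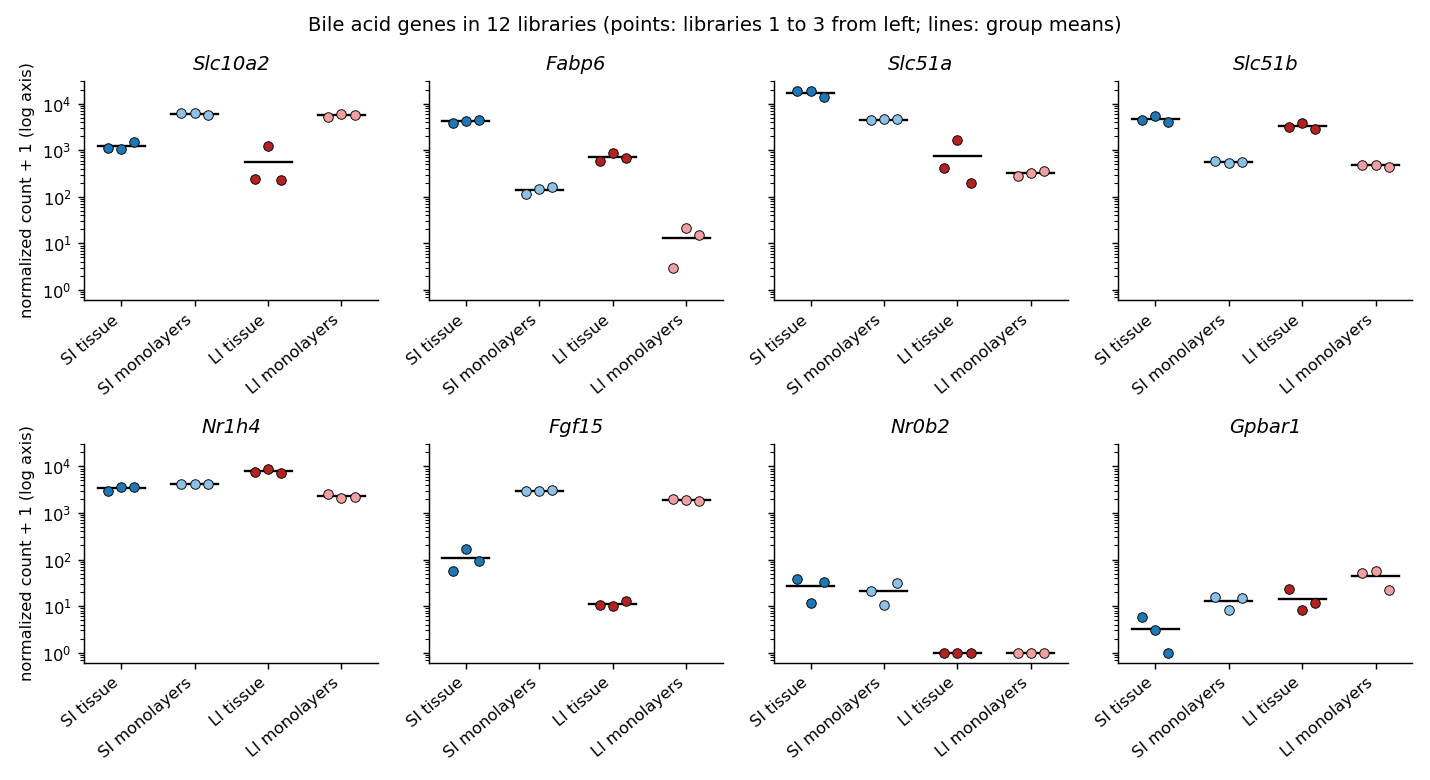
Normalized count plus 1 of each of the 8 genes (log axis) in the 12 libraries, with points for libraries 1 to 3 of each group from left to right and a line at the group mean. Slc10a2 and Fgf15 are high in both monolayer groups, Fabp6 and Slc51b are high in both tissue groups, and Nr0b2 is at 0 in all LI libraries.

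Between SI monolayers and SI tissue, 3 of the 8 members were called higher (Slc10a2, Fgf15, Gpbar1) and 3 lower (Fabp6, Slc51a, Slc51b), while of all genes tested 26.1% were called, 9.71% higher and 16.4% lower. Gpbar1 passed the filter only through groups other than SI tissue, and without it Slc10a2 and Fgf15 were the members called higher. The median log2 fold change was 0.01 over the 8 members and -0.05 over all genes tested. Groups did not overlap for 7 of 8 members, beside 66.4% of all genes. Between LI monolayers and LI tissue, 3 were called higher (Slc10a2, Fgf15, Gpbar1) and 3 lower (Fabp6, Slc51b, Nr1h4), beside 38% of all genes (14.5% higher, 23.5% lower). Without Gpbar1, which had few counts in every library, 2 of 7 were called higher and 3 lower. The median over the 7 members with counts in LI was -1.22, compared with -0.05 over all genes. That median is the value of Slc51a, which was not called and was 0.13 without the second LI tissue library. Groups did not overlap for 5 members, beside 73% of all genes. Between SI tissue and LI tissue, 4 were called higher in SI (Fabp6, Slc51a, Fgf15, Nr0b2) and 2 lower (Nr1h4, Gpbar1), beside 22.7% of all genes (11.6% higher, 11.1% lower). Without Nr0b2, which the SI groups let through the filter, 3 of 7 were called higher and 2 lower. Of these, Gpbar1 passed only through groups other than SI tissue, which leaves Nr1h4 as the member called lower. With Nr0b2 set at its lower bound the median was 1.88 (1.17 without it, the value of Slc10a2), and 0.06 over all genes. Groups did not overlap for 7 members, with Nr0b2 and Gpbar1 among them, beside 58.6% of all genes. Between SI monolayers and LI monolayers, 3 were called higher in SI (Fabp6, Slc51a, Nr0b2) and 1 lower (Gpbar1), beside 21.2% of all genes (12.4% higher, 8.88% lower). Without Nr0b2, let through by the SI groups, and Gpbar1, which had few counts, 2 of 6 were called higher and 0 lower. With Nr0b2 at its bound the median was 0.81 (0.70 without it, the value of Fgf15), and 0.02 over all genes. Groups did not overlap for 7 members, with Nr0b2 and Gpbar1 among them, beside 62.4% of all genes. The interaction of region and preparation, which is the SI change of monolayers against tissue minus the LI change, was called positive for 1 member (Nr1h4) and negative for 1 (Fgf15), beside 20% of all genes (11.4% positive, 8.51% negative).

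**Figure D2:**
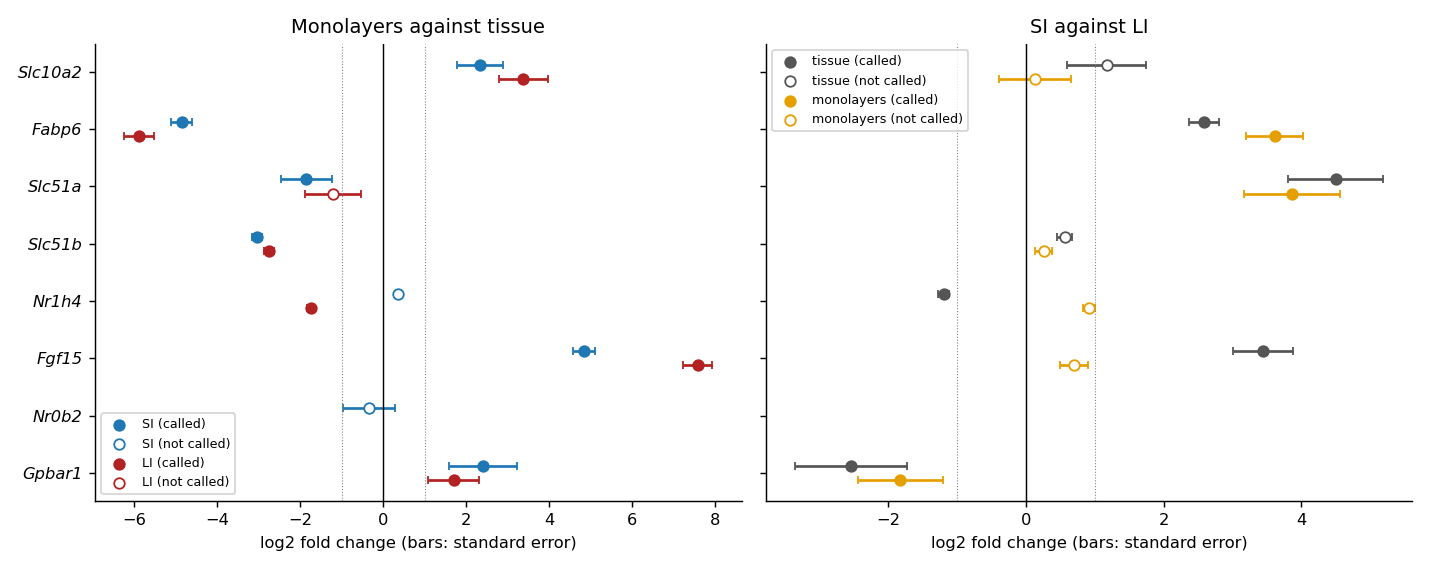
Log2 fold change of each gene with its standard error, for monolayers against tissue (left: SI and LI) and for SI against LI (right: tissue and monolayers), with filled points for called genes and dotted lines at the minimum fold change. Nr0b2 is left out where the LI libraries are at 0. In the left panel Fgf15 lies at 4.84 in SI and 7.58 in LI, and Fabp6 at -4.85 and -5.88.

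Slc10a2 (ENSMUSG00000023073, GRCm38 chromosome 8 from 5083219 to 5105351, minus strand, 6 exons) encodes the apical sodium-dependent bile acid transporter. Its normalized count was 1094, 1084 and 1508 in the SI tissue libraries and 6223, 6150.3 and 5773 in SI monolayers. In LI tissue it was 242, 1212 and 230.3, and in LI monolayers 5283, 5917 and 5750.2. All 6 monolayer libraries lay above all 6 tissue libraries, and the monolayers of both regions overlapped. The 10.4-fold rise in LI and 5.03-fold rise in SI were both called, with the interaction of region and preparation at -1.04 (SE 0.77, adjusted p = 0.314, edgeR). Without the second LI tissue library, the log2 fold change in LI moved from 3.38 to 4.62.

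The second LI tissue library reached the level of SI tissue for Slc10a2. It lay 5.05 times above the higher of the other LI tissue libraries, and Slc51a lay 4.20 times above in the same library. Of 13480 genes with a mean of at least 1 CPM, 22 were at least 4 times above both other LI tissue libraries there, compared with 34 in the first and 0 in the third library. In the second library the 12 small intestine markers had a median of 0.246% of their mean in SI tissue, with Slc5a1 highest at 6.77%, and their part in its values was not tested. With all libraries, Slc10a2 was not called between SI and LI tissue (log2 fold change 1.17, SE 0.57, adjusted p = 0.118). Without the second LI tissue library it was called (2.42, SE 0.14, adjusted p = 2.05e-08), and the interaction was called as well (-2.29, adjusted p = 4.5e-07). Between the monolayers, SI against LI gave 0.13 (SE 0.52) with it and 0.13 (SE 0.10) without it.

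Fabp6 (ENSMUSG00000020405, chromosome 11 from 43596049 to 43601540, minus strand, 4 exons) encodes the ileal bile acid binding protein. Its normalized count was 3785, 4256 and 4536 in SI tissue and 115, 148 and 160.5 in SI monolayers. In LI tissue it was 585, 884 and 686, and in LI monolayers 1.93, 20.7 and 13.8. No pair of neighbouring groups overlapped, in the order SI tissue, LI tissue, SI monolayers, LI monolayers. LI tissue libraries thus held more Fabp6 than the monolayers of the small intestine.

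The log2 fold change was -4.85 in SI and -5.88 in LI, and among the 13480 genes with a mean of at least 1 CPM Fabp6 had the 92nd and the 113th lowest log2 fold change. SI exceeded LI by a log2 fold change of 2.58 in tissue (SE 0.22, adjusted p = 2.42e-06) and 3.61 in monolayers (SE 0.41, adjusted p = 2.57e-05). Without the second LI monolayer library the log2 fold change was -6.52 in LI, and SI exceeded LI monolayers by 4.21. The interaction was 1.03 (SE 0.51, adjusted p = 0.132), and it was called only without the second LI monolayer library (1.70, adjusted p = 0.04) among 12 fits that each left out 1 library. In LI monolayers Fabp6 rested on 2, 18 and 14 counts, or 0.0465%, 0.493% and 0.330% of the SI tissue mean. The small intestine markers had medians of 0.434%, 0.791% and 0.650% in the same libraries, and their part in the Fabp6 value was not tested. In LI tissue Fabp6 stood at 13.4% to 20.5% of SI tissue, where those markers had medians of 0.117% to 0.858%.

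FXR with RXR is known to bind an inverted repeat of 2 hexamers spaced by 1 base. The 250 bases before the RefSeq start of Fabp6 (GRCm38.p6, chr11:43601563-43601812, minus strand) are shown because they hold a relaxed core of this element, an inverted repeat of GGTNA (N is any base) spaced by 1 base, at 221 and at 141 bases before the start, in capitals.
Fabp6: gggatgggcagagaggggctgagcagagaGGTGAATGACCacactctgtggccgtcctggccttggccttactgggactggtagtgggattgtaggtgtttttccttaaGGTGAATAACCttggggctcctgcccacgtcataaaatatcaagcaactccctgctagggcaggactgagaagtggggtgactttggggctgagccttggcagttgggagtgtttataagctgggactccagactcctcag
As a pattern with free bases, the core is the same on both strands, though a single match need not be. It occurs before 72 of the 32851 starts (0.219%). Of the 7 members with a promoter in RefSeq it was found for Fabp6 and for Slc51b. The 30 bases around the match of Slc51b (chr9:65422939-65422968, minus strand), whose first base lies 186 bases before the RefSeq start, are given for comparison. The annotated gene reaches further upstream than this RefSeq start, and 7 of the 11 bases of the match lie inside it.
Slc51b: cattcgtggGGTCATTCACCctggactggc
The strict form, with AGGTCA as the repeated unit, was found for 0 members and before 0.00609% of all starts. A single AGGTCA on either strand, found before 14% of all starts, was present for Slc51b, Nr1h4 and Slc51a. The wobble letters of the core were set with these sequences in view, and a match describes letters only.

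The relation of uptake transporter to carrier was compared within each library, as counts per kilobase of exon, which does not depend on the scaling of a library. Slc10a2 stood at 0.0294 to 0.0384 of Fabp6 in SI tissue and at 0.0388 to 0.158 in LI tissue. In SI monolayers the ratio was 4.15 to 6.23, and in LI monolayers 33.0 to 317, with the first LI monolayer library (2 counts of Fabp6) at the top. Fabp6 therefore exceeded Slc10a2 in all 6 tissue libraries and Slc10a2 exceeded Fabp6 in all 6 monolayer libraries.

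**Figure D3:**
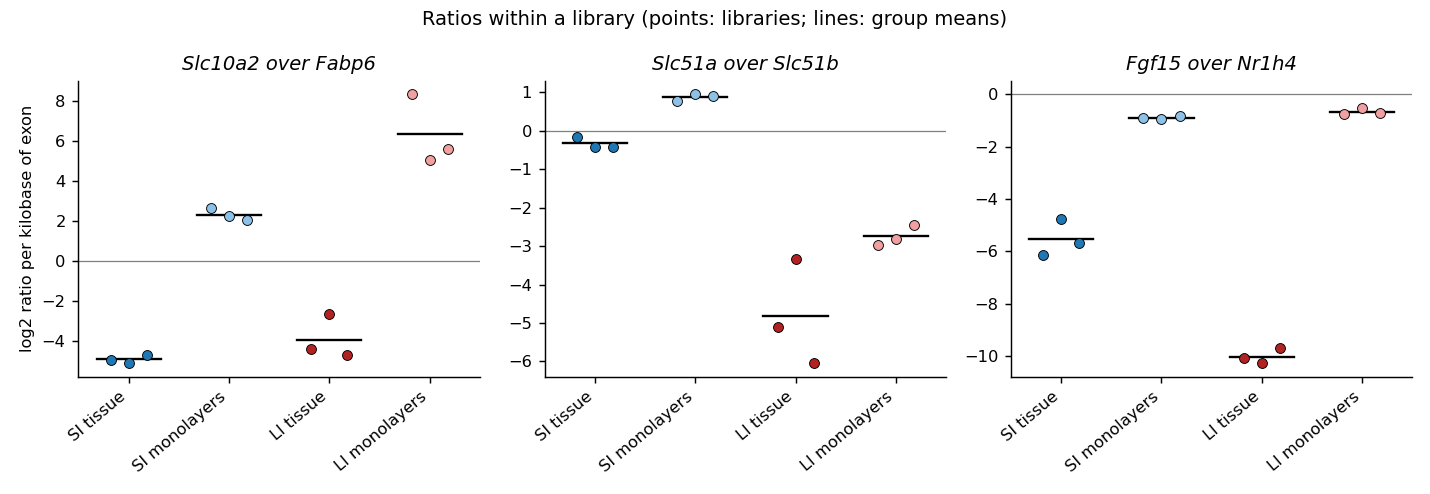
Log2 ratio per kilobase of exon of Slc10a2 over Fabp6, Slc51a over Slc51b, and Fgf15 over Nr1h4 in each of the 12 libraries, with lines at group means of the log2 ratio. The first ratio is below 0 in every tissue library and above 0 in every monolayer library, and the second is above 0 only in SI monolayers.

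Slc51a and Slc51b encode the subunits of the basolateral exporter, which needs both to reach the membrane. Slc51a (ENSMUSG00000035699, chromosome 16 from 32474504 to 32487879, minus strand) had normalized counts of 18304, 18726 and 13615 in SI tissue and 4431, 4598 and 4651 in SI monolayers. In LI tissue it had 408, 1694 and 197, and in LI monolayers 284, 316 and 356. SI lay above LI in every library, and LI tissue and LI monolayers overlapped. SI exceeded LI 22.6-fold in tissue (log2 fold change 4.50, SE 0.69, adjusted p = 0.000526) and 14.6-fold in monolayers (3.87, SE 0.70, adjusted p = 0.00149). Without the second LI tissue library the log2 fold change in tissue was 5.85.

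In SI, Slc51a was 3.61-fold lower in monolayers (log2 fold change -1.85, SE 0.61, adjusted p = 0.0275). This call was lost in 5 of 12 fits that left out 1 library, namely the first or the second SI tissue library or any SI monolayer library (log2 fold change -1.77 to -1.83 in these 5), and the highest adjusted p was 0.0819. In a fit of the SI groups alone the SE was 0.11 (adjusted p = 8.57e-07), since the spread of the LI tissue libraries then did not enter. In LI, the log2 fold change of -1.22 (SE 0.68, adjusted p = 0.143) was not called. It was 0.13 without the second LI tissue library and was called at -1.67 without the third. Without the second LI tissue library the interaction of Slc51a was -1.98 (adjusted p = 0.00253), compared with -0.63 (adjusted p = 0.613) with it.

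Slc51b (ENSMUSG00000053862, chromosome 9 from 65412714 to 65422955, minus strand, 4 exons) differed more by preparation than by region. Its normalized counts were 4533, 5509 and 4012 in SI tissue and 576, 529 and 552 in SI monolayers. In LI tissue they were 3111, 3767 and 2892, and in LI monolayers 490.0, 490.1 and 432. Tissue exceeded monolayers 8.28-fold in SI (log2 fold change -3.05, SE 0.12, adjusted p = 4.58e-11) and 6.70-fold in LI (-2.74, SE 0.12, adjusted p = 5.45e-11). Both calls were made in all 12 fits that left out 1 library. Between regions, SI against LI gave a log2 fold change of 0.56 in tissue (SE 0.11, adjusted p = 0.000551), below the minimum fold change, and 0.26 in monolayers (SE 0.12, adjusted p = 0.0911).

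The balance of the subunit transcripts differed by region. Per kilobase, Slc51a stood at 0.752 to 0.895 of Slc51b in SI tissue and at 1.71 to 1.93 in SI monolayers. In LI tissue the ratio was 0.0151 to 0.0997, and in LI monolayers 0.128 to 0.183. Slc51a was above Slc51b in 3 of 12 libraries, the SI monolayers. With the longest transcript as the length in place of all exons, this was so in 4 libraries. The exons of Slc51a share 567 bases with Pcyt1a on the opposite strand (5062 to 17743 normalized counts), and those of Slc51b share 91 bases with Rasl12 (7.68 to 97.6). Whether reads were counted by strand is not given in the sources used here, so reads of these pairs cannot be told apart.

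Nr1h4 (ENSMUSG00000047638, chromosome 10 from 89454234 to 89533585, minus strand) encodes FXR, the receptor through which bile acids act on most of the other members. Its normalized counts were 2923, 3525 and 3595 in SI tissue and 4142, 4276 and 4185 in SI monolayers. In LI tissue they were 7758, 8575 and 7308, and in LI monolayers 2492, 2087 and 2220.4. The groups did not overlap, and LI tissue was highest and LI monolayers lowest. In tissue LI thus exceeded SI 2.29-fold (log2 fold change of SI against LI -1.19, SE 0.09, adjusted p = 1.13e-08), whereas in monolayers SI exceeded LI 1.89-fold (0.92, SE 0.09, adjusted p = 2.52e-07), just under the minimum fold change. Without the first LI monolayer library the latter was called (1.02, adjusted p = 5.47e-07). The order of the regions reversed between preparations, and the interaction was called (2.11, SE 0.12, adjusted p = 2.73e-09). Nr1h4 was 3.36-fold lower in LI monolayers than in LI tissue (log2 fold change -1.75, SE 0.09, adjusted p = 5.47e-11), and 1.28-fold higher in SI monolayers than in SI tissue (0.36, SE 0.08, adjusted p = 0.00166), below the minimum fold change. The interaction was called in all 12 fits that left out 1 library, at 2.02 to 2.29.

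Fgf15 (ENSMUSG00000031073, chromosome 7 from 144896531 to 144900953, plus strand, 2 exons) had the largest rise of the members. Its normalized counts were 55.3, 171 and 93.8 in SI tissue and 2952, 2993 and 3105 in SI monolayers. In LI tissue they were 9.40, 9.15 and 11.6, from 10 to 13 counts per library, and in LI monolayers 1947, 1928 and 1805. No neighbouring groups overlapped, and every monolayer library lay over 10 times above every tissue library. The rise was 28.7-fold in SI (log2 fold change 4.84, SE 0.26, adjusted p = 5.01e-08) and 192-fold in LI (7.58, SE 0.35, adjusted p = 7.24e-09). Among the 13480 genes with a mean of at least 1 CPM, these were the 55th and the 17th highest log2 fold change.

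Regional contrast in Fgf15 was smaller in monolayers than in tissue. SI exceeded LI 10.9-fold in tissue (log2 fold change 3.44, SE 0.43, adjusted p = 5.88e-05) and 1.63-fold in monolayers (0.70, SE 0.21, adjusted p = 0.0164), and the interaction was called (-2.74, SE 0.50, adjusted p = 0.00117). It was called in all 12 fits that left out 1 library. Per kilobase, Fgf15 stood at 0.0142 to 0.0365 of Nr1h4 in SI tissue and 0.000804 to 0.0012 in LI tissue, compared with 0.527 to 0.559 in SI and 0.588 to 0.696 in LI monolayers. The exons of Fgf15 share 761 bases with the antisense gene Gm26793 and 26 with Gm39119. These had at most 2.08 normalized counts in tissue, 61.4 to 95.0 and 26.4 to 31.2 in SI monolayers, and 28.7 to 46.2 and 6.89 to 16.8 in LI monolayers, and their reads cannot be told apart from those of Fgf15 if strand was not used.

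The targets of FXR thus did not move as 1 group. In SI, with the receptor gene changed by less than the minimum fold, Fgf15 rose, Fabp6, Slc51a and Slc51b fell, and Nr0b2 was not called. In LI, with the receptor gene lower, Fgf15 again rose, and Fabp6 and Slc51b fell.

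Nr0b2 (ENSMUSG00000037583, chromosome 4 from 133553376 to 133556536, plus strand, 2 exons) encodes SHP, a nuclear receptor without a DNA-binding domain that represses other nuclear receptors. Its normalized counts were 37.6, 10.4 and 31.3 in SI tissue and 20.2, 9.79 and 31.0 in SI monolayers. All 6 LI libraries had 0 counts. The SI groups overlapped (log2 fold change of monolayers against tissue -0.34, SE 0.64, adjusted p = 0.67). With 74 counts over the SI tissue libraries against a limit of 3 counts over the LI tissue libraries, SI tissue was at least 27.8-fold higher than LI tissue, and SI monolayers, with 66 counts, at least 20.7-fold higher than LI monolayers. If both mates of each pair were counted, these bounds are 13.9-fold and 10.4-fold. Because the SI groups let Nr0b2 through the filter, its calls of SI against LI follow in part from the filter. No p-value is given for them.

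Gpbar1 (ENSMUSG00000064272, chromosome 1 from 74278550 to 74279624, plus strand) was the only other member with few counts. Its normalized counts were 4.70, 2.08 and 0 in SI tissue and 14.4, 7.12 and 13.7 in SI monolayers. In LI tissue they were 22.6, 7.32 and 10.7, and in LI monolayers 51.0, 56.2 and 20.8. SI tissue lay below the other groups, which overlapped in part. Monolayers exceeded tissue in SI (log2 fold change 2.41, SE 0.82, adjusted p = 0.0188), and LI tissue exceeded SI tissue (SI against LI -2.54, SE 0.81, adjusted p = 0.0147). Gpbar1 passed the filter only through groups other than SI tissue, so that neither call is independent of the filter. Each of these calls was made in 10 of 12 fits that left out 1 library. In SI it was lost without the second or the third SI tissue library, with log2 fold changes over the 12 fits of 1.81 to 3.42 (1.81 without the third and 3.42 without the first SI tissue library). Between tissues it was lost without the third SI tissue or the first LI tissue library, with log2 fold changes of -3.54 (without the first SI tissue library) to -1.94 (without the third). LI monolayers against LI tissue, whose libraries overlapped, gave a log2 fold change of 1.70 (SE 0.61, adjusted p = 0.0212, edgeR). SI against LI monolayers gave -1.83 (SE 0.62, adjusted p = 0.0207, edgeR). Both calls were made in only 8 of 12 fits that left out 1 library (highest adjusted p 0.101 in LI and 0.0925 between monolayers). In fits of only the groups compared, Gpbar1 did not pass the filter in SI or between tissues. Gpbar1 is known to be expressed in enteroendocrine and immune cells, among others. The enteroendocrine markers summed to 374 to 605 CPM in SI tissue against 724 to 764 CPM in its monolayers. In LI they summed to 336 to 384 CPM in tissue against 1010.2 to 1153 CPM in monolayers. The immune markers went the other way, from 151 to 229 CPM in SI tissue to 10.3 to 11.5 CPM in its monolayers. In LI the immune sums were 36.5 to 49.3 CPM in tissue and 3.35 to 4.25 CPM in monolayers. The part of either cell type in the values of Gpbar1 was not tested.

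Per length, the leading member differed in each of the 4 groups. In CPM per kilobase of exon, with library totals scaled by TMM, Fabp6 was highest in SI tissue at 130.3 ± 12.2 (SD, n = 3), followed by Slc51b at 98.3 ± 15.4 and Slc51a at 78.5 ± 12.8. In SI monolayers Nr1h4 led at 27.8 ± 0.50, with Slc10a2 at 22.2 ± 0.84, Slc51a at 21.7 ± 0.61 and Fgf15 at 15.0 ± 0.43. In LI tissue Slc51b led at 66.5 ± 9.22, with Nr1h4 at 49.5 ± 3.93 and Fabp6 at 21.7 ± 4.67. In LI monolayers Slc10a2 led at 20.3 ± 1.05, with Nr1h4 at 14.7 ± 1.44, Slc51b at 9.92 ± 0.74 and Fgf15 at 9.25 ± 0.41. Nr0b2 and Gpbar1 stayed under 1 in every library. With the longest transcript as the length, Fgf15 was at 25.4 in SI and 15.6 in LI monolayers, since its annotated transcripts differ in length.

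The other genes of bile acid handling were read from lists of 38 genes, of which 28 passed the filter. In SI, 4 of the 28 were called higher and 9 lower in monolayers, beside 26.1% of all genes, at a median log2 fold change of -0.76 (-0.05 over all genes tested). In LI, 2 were called higher and 13 lower, beside 38% of all genes, at a median of -1.44 over the 27 genes with counts in both LI groups (-0.05 over all genes). SI tissue exceeded LI tissue for 11 and fell below it for 6 of the 28 (22.7% of all genes were called), and SI monolayers exceeded LI monolayers for 12 and fell below for 1 (21.2% of all genes). The interaction was called for 9 in the positive and 1 in the negative direction (20% of all genes).

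**Figure D4:**
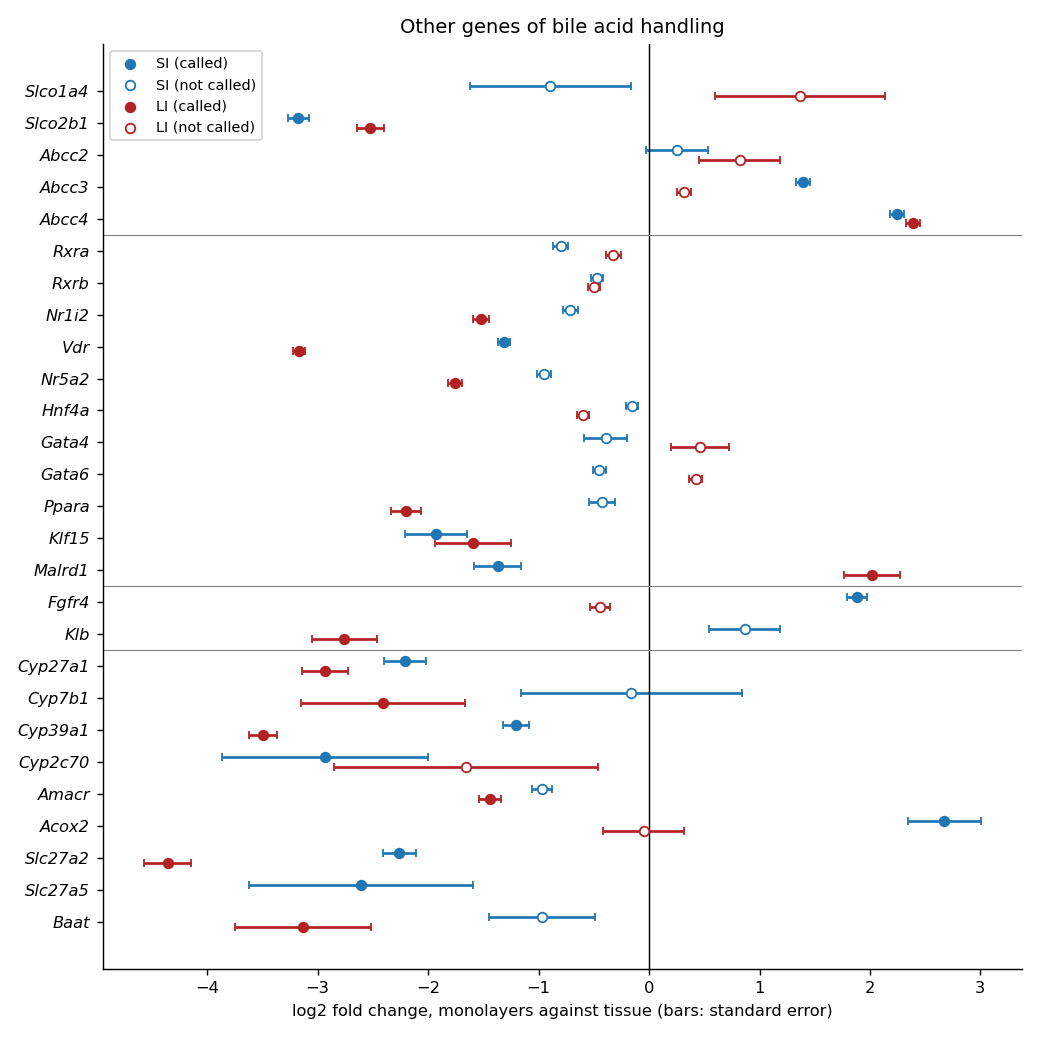
Log2 fold change of monolayers against tissue with its standard error for 27 of the 28 other genes of bile acid handling that passed the filter, in SI and in LI, with filled points for called genes. Lines part other transporters, partners and regulators, the receptor of FGF15, and synthesis and conjugation. Slc27a5, at 0 in LI tissue, has no LI point. Abcc4 is high in monolayers of both regions, and most called genes of synthesis and conjugation lie below 0.

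Of 10 other transporter genes 5 passed the filter, of which 2 were called higher and 1 lower in SI (26.1% of all genes), and 1 higher and 1 lower in LI (38% of all genes). Abcc4, a basolateral efflux pump gene, rose from 307 to 351 normalized counts in SI tissue up to 1504 to 1549 in SI monolayers (log2 fold change 2.24, SE 0.06, adjusted p = 1.65e-13). In LI it rose from 1080.2 to 1146 up to 5447 to 5791 (2.39, SE 0.06, adjusted p = 1.09e-14). Abcc4 thus rose in both regions while the exporter subunit gene Slc51b fell. Slco2b1, an organic anion uptake transporter gene, fell from 4447 to 4649 in SI tissue to 470 to 519 in SI monolayers (-3.17, SE 0.10, adjusted p = 3.37e-13). Abcc2, an apical efflux pump gene, exceeded LI 85.0-fold in SI tissue and 57.5-fold in SI monolayers.

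Of the 12 partners and regulators, 0 were called higher and 3 lower in SI monolayers (26.1% of all genes), and 1 higher and 5 lower in LI monolayers (38% of all genes, edgeR). Rxra, the partner of FXR, was lower by less than the minimum fold in SI (-0.80, SE 0.07, adjusted p = 2.82e-08) and LI monolayers (-0.32, SE 0.07, adjusted p = 0.000381). Vdr, the vitamin D receptor gene, whose product also senses a secondary bile acid, fell 8.98-fold in LI (from 20402 to 22861 normalized counts to 2319 to 2336) and 2.48-fold in SI. Gata4, a transcription factor gene of the proximal small intestine, had 11128 to 12942 in SI tissue and 8737 to 9078 in SI monolayers, and was not called between them (-0.39, SE 0.19, adjusted p = 0.111). In LI it had 87.5 to 226 in tissue and 181 to 216 in monolayers. Malrd1, whose product is known to raise FGF15 output, moved in opposite directions: it fell in SI (-1.37, SE 0.22, adjusted p = 0.000375) and rose in LI (2.02, SE 0.25, adjusted p = 5.65e-05), with an interaction of -3.39.

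The receptor genes of FGF15 are known from liver and were present here. Fgfr4 rose in SI from 371 to 442 up to 1354 to 1565 normalized counts (1.88, SE 0.09, adjusted p = 7.45e-11), and in LI was at 1607 to 1627 in tissue and 1055 to 1273 in monolayers. Klb had 11.8 to 27.4 in SI tissue and 30.7 to 37.4 in its monolayers. In LI tissue it had 181 to 263, compared with at most 35.6 in LI monolayers, where it fell by 2.76 on the log2 scale (SE 0.29, adjusted p = 3.34e-07). In SI its log2 fold change was 0.87, not called, and 1.27, called, without the third SI tissue library. In tissue both were higher in LI than in SI (SI against LI -1.97 for Fgfr4 and -3.47 for Klb), the reverse of Fgf15.

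Of 14 genes of bile acid synthesis and conjugation 9 passed the filter, with 1 called higher and 5 lower in SI monolayers (26.1% of all genes) and 0 higher and 6 lower in LI monolayers (38% of all genes, edgeR). Cyp7a1, the rate-limiting enzyme gene that FGF15 represses in liver, had 0 counts in all 12 libraries. Among those with a mean of 1 CPM or more, the largest falls were in Slc27a2, a gene of acyl-CoA synthesis, in SI (-2.26, SE 0.15, adjusted p = 4.55e-08) and LI (-4.36, SE 0.21, adjusted p = 1.29e-09), followed by the sterol hydroxylase genes Cyp27a1 in SI (-2.21, SE 0.19, adjusted p = 1.08e-07) and Cyp39a1 in LI (-3.50, SE 0.13, adjusted p = 6.02e-13). Acox2, the peroxisomal oxidase gene that shortens the bile acid side chain, rose in SI from 113 to 296 up to 1174 to 1279 normalized counts (2.67, SE 0.33, adjusted p = 3.01e-05). In LI it was at 67.8 to 145 in tissue and 75.1 to 114 in monolayers (-0.05, SE 0.36).

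The genes most like each member were those with the smallest root mean square difference in log2 CPM over the 12 libraries, after each gene was centred on its own mean, among 12186 protein-coding genes with a mean of at least 1 CPM. They were sought for the 6 members other than Nr0b2 and Gpbar1. Nr1h4 had the closest neighbours, among them Phf21b at 0.17 and the transcription factor gene Foxa3 at 0.17. Slc51b was followed by Clec2h at 0.24, which encodes a C-type lectin, and by the leukocyte genes Cd53 at 0.27 and Fermt3 at 0.27. Cd53 fell from 241 to 331 normalized counts in SI tissue to 23.7 to 38.4 in SI monolayers, as did the immune markers, and their part in the values of Slc51b was not tested.

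Fgf15 had no neighbour as close as those. Fam20c, a secretory pathway kinase gene, lay at 0.52, with 168 to 240 normalized counts in SI tissue and 27.5 to 35.7 in LI tissue, compared with 4414 to 4691 and 6504 to 6937 in the monolayers, followed by Trex2 at 0.92 and 1700016C15Rik at 0.99. For Slc10a2 these were Arhgdig at 0.56, Suox at 0.59 and Chst11 at 0.60, and for Slc51a Amn at 0.52, Abhd3 at 0.53 and Hkdc1 at 0.57. For Fabp6 they included the antimicrobial lectin gene Reg3b at 0.57 and Pbld1 at 0.66. Reg3b had 224526 to 266862 normalized counts in SI tissue and 49174 to 165014 in LI tissue, then 7456 to 8368 in the monolayers of SI and 162 to 891 in those of LI, the same order of groups as Fabp6.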

How the data were processed

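RNA from 12 mouse libraries was sequenced. The authors aligned reads to GRCm38 with STAR (2.7.9a), counted them on GENCODE M25 genes with featureCounts (2.0.2) and deposited whole-number counts per gene. They also deposited a normalized signal, in which DESeq2 had divided the counts of a library by its size factor. Strand and mate counting are not given in the sources used here. Among counts from 1 to 20, 73.4% to 77.4% were even numbers, so counts may hold both mates. Groups were taken from the sample labels, and every column was mapped to a library.

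From the counts, genes were kept by filterByExpr, scaled by TMM and tested with edgeR 4.0.16 (robust quasi-likelihood fit, R 4.3.3) in 1 model of the 4 group means, with Benjamini-Hochberg adjustment over 19581 genes in each of 5 comparisons. P-values measure the spread between these libraries only. The tests were checked on simulated counts. Gene positions and exon lengths came from GENCODE M21 on GRCm38, and promoters from RefSeq.

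The text names the 8 members, Rxra, Gata4, Fgfr4, Klb and Cyp7a1, up to 3 called genes per direction and comparison from the pathway lists (mean of 1 CPM or more), and the 3 genes most like each of 6 members. Pcyt1a, Rasl12, Gm26793, Gm39119 and Slc27a5 were named for their overlap or zero counts, and Slc5a1 and Cd53 were picked as examples with values in view. Some genes are not reported here. The members and lists were chosen with earlier results of these data known. Alternatives were upper quartile and DESeq2 size factor scaling, DESeq2 1.42.0, no filter, 10 or more counts in each library, fold changes of any size, the compared groups alone, the replicate number as a block, halved counts, each library left out, and, for levels, other lengths, library totals and a prior count of 0.5.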

Additional observations from a re-analysis of the deposited data

Results flagged for a closer look

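A test of the difference between SI and LI in the change from tissue to monolayers (edgeR's interaction, log2 scale, SI minus LI) was past the threshold for 2 of 8 members and for 10 of the 28 other bile acid genes tested, 7 of which the text names. It was 2.11 for Nr1h4, which was 3.36-fold lower in LI monolayers than in LI tissue and 1.28-fold higher in SI monolayers than in SI tissue. It was -2.74 for Fgf15, which rose in both regions, by 4.84 in SI and 7.58 in LI. For Malrd1 it was -3.39, with a fall in SI and a rise in LI. Fgfr4 had 2.33 and Klb 3.62, the former with a rise in SI and the latter with a fall in LI. Acox2 had 2.72, with a rise in SI. Vdr had 1.85, Cyp39a1 2.29 and Slc27a2 2.09, each with a fall in both regions. The share of all genes tested that passed this threshold was 20%. Region goes together with the isolation of crypts, and the 2 cannot be told apart.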

How the results depend on the processing

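The members called were 6, 6, 6 and 4 in the pairwise comparisons (SI, LI, tissue, monolayers) and 2 in the interaction. The shares of all genes were 26.1%, 38%, 22.7%, 21.2% and 20%. The 6 for tissue and the 4 for monolayers include Nr0b2, whose calls of SI against LI follow in part from the filter. The 6 for SI and the 6 for tissue include Gpbar1, which passed the filter only through groups other than SI tissue. The member counts stayed the same under upper quartile or DESeq2 size factor scaling, the DESeq2 test, no filter and halved counts. With at least 10 counts in every library, Fabp6, Nr0b2 and Gpbar1 drop out, and 3 were called between tissues and 1 between monolayers. The whole-table counts were then 3140, 4797, 2606 and 2442, and with no minimum fold change 11674, 13445, 10558, 10145 and, for the interaction, 9069. With each library left out in turn, 4 to 6, 5 to 6, 5 to 7, 3 to 4 and 2 to 4 members were called, and 4889 to 5220, 7266 to 7631, 4300 to 4621, 4022 to 4238 and 3674 to 3997 of all genes. The 4 members of the interaction came without the second LI tissue library. The log2 fold change of Nr0b2 in SI ranged from -0.75 to 0.026 (without the third and the second SI monolayer library) and was never called. That of Slc51a in LI ranged from -1.67, called, to 0.13, not called (without the third and the second LI tissue library). Slc51a was above Slc51b per kilobase in 4 libraries with the longest transcript as the length. With the groups compared alone, 5 members were called in SI and 5 between tissues, where Gpbar1 did not pass the filter and was not tested. Upper quartile scaling moved the median log2 fold change of all genes in LI from -0.05 to -0.17 and kept every call of a member. With the replicate number as a block, 5017, 7367, 4383, 4083 and 3807 genes were called and 6, 6, 6, 4 and 2 members. Same-numbered libraries did not deviate together (r -0.0516 to 0.0563 over 18 pairs), nor did differently numbered ones (-0.108 to 0.0978 over 36 pairs). Deviations over all genes cannot show whether libraries share a mouse, and the labels do not tell it. The 3 like genes of each of the 6 members compared were the same with a prior count of 0.5. Depth limits Nr0b2 and Gpbar1, with at most 53 counts in a library.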
